A study of Homo sapiens with 96 samples.

Results

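The kinases that drive RNA polymerase II through the transcription cycle, and the cyclins that switch them on, were followed here as spliced transcripts in A549 cells, an established human lung adenocarcinoma line, after protein arginine methyltransferase (PRMT) inhibition. The set comprised 10 genes: CDK7, CDK9, CDK10, CDK12, CDK13, CCNL1, CCNL2, CCNK, CCNT1 and CCNT2. Its members were all splicing events assigned to those gene symbols, 252 of 239131 events listed in the deposited tables, with no measured value used in the choice. Across the data, 1 gene, CDK10, held the largest change from DMSO and the most changed events, though not the largest share of its events tested. In every group given the PRMT5 inhibitor, a pair of neighbouring introns was retained more and an exon with a stop codon was included more. The rise of 1 of these introns at 7 days, and most of the rises of that exon, did not hold in every check. In the same groups a coding exon between those introns had a lower ratio of inclusion to skipping reads.

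The libraries were poly(A)-RNA sequencing libraries of 10 groups with 3 libraries each. GSK591, an inhibitor of PRMT5, and MS023, an inhibitor of the Type I PRMTs, were each given at 1 µM for 2, 4 or 7 days, their combination (1 µM of each) for 2 or 4 days, and the vehicle, DMSO at 0.01%, for 4 or 7 days. Both 2-day and 4-day treatments were set against 4-day DMSO, and 7-day treatments against a control inferred to be 7-day DMSO. For the 2-day groups the effect of the inhibitor and that of the time in culture therefore cannot be told apart. All groups were of 1 cell line, and nothing in the labels states that the 3 libraries of a group came from separate cultures, so p-values measure the spread between these libraries, which may be technical.

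PRMT5 makes symmetric dimethylarginine on the Sm proteins of the spliceosome, and the Type I enzymes make asymmetric dimethylarginine on many RNA-binding proteins. CDK7 acts at the start of transcription, where it phosphorylates the C-terminal tail of RNA polymerase II and activates other cyclin-dependent kinases. CDK9 with cyclin T1 or T2 (CCNT1, CCNT2) forms P-TEFb, which releases the paused polymerase, while CDK12 and CDK13 share cyclin K (CCNK) and act during elongation. Cyclins L1 and L2 (CCNL1, CCNL2) sit in nuclear speckles with CDK11 and are linked to splicing, and CDK10 is a relative of CDK11 that is partnered by cyclin M.

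An event was a choice between 2 forms of a transcript, and its value was Ψ, the share (0 to 1) of the form that includes the variable segment after reads are divided by the effective length of each form. The 5 types were retained intron (RI), cassette exon (SE), alternative 3′ splice site (A3SS), alternative 5′ splice site (A5SS) and mutually exclusive exons (MXE). Reads within the variable segment count toward the inclusion form, so Ψ of an A3SS or A5SS event is not splice site use alone. Libraries carry the letters a, b and c in the order of the tables, since the column names hold no replicate number. The difference ΔΨ was the mean of 3 treated libraries minus the mean of 3 control libraries, given as ΔΨ ± its standard error. An event was tested where every library held at least 10 reads, with a quasi-binomial model on the read counts, and was called at a Benjamini-Hochberg adjusted p under 0.05 over all events of its type. Events of 1 gene often share junction reads, so their number is not a number of independent changes, and no exact permutation of 3 against 3 libraries can give a p below 0.1. Ψ tells how transcripts were spliced and not how many there were.

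Reads over all listed events came to 72359972 to 160695916 per library and those over member events to 28211 to 84368, a read being counted for each event it overlaps. The highest totals were those of 4-day DMSO (142357991, 160695916 and 144291336), with at most 107061919 in any other library. A control's total takes in the events of every comparison it serves, so these totals are not sequencing depths and do not compare groups. Libraries of 1 group differed by more than counting noise, with a chi-square per degree of freedom of 1.88 to 4.72, so none was a copy of another. Reads on events of the epithelial keratin genes KRT8 (266370 to 603959 per library) and KRT18 (17743 to 297208) were many, but those on the epithelial genes CDH1 (266 to 1310) and EPCAM (5 to 297) were fewer. Of the alveolar type II genes NAPSA had 43 to 356 reads and SFTPC 0 to 13, and of other cell types the fibroblast genes COL1A1 and PDGFRB had 9 to 120 and 0 to 4, the T cell gene CD3E 0 to 17 and the endothelial gene CDH5 0 to 8. These are reads on splicing events and not expression levels, and the other 6 markers listed for the check had no event.

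Called events appeared in the set at every time of PRMT5 inhibition. After 2 days of GSK591, 4 of 9 member introns were called, beside a background of 26.4% of all introns tested, with 9 of 88 cassette exons (background 7.16%) and 6 of 39 events of the other types (background 4.28%). After 4 days the calls were 5 of 9 introns (38.2% of all introns), 15 of 85 cassette exons (10.6%) and 7 of 33 others (9.58%). After 7 days they were 6 of 9 introns (27.9%), 9 of 76 cassette exons (8.55%) and 5 of 32 others (7.25%). The calls went both ways. Of all member events called, 15 were higher and 4 lower after 2 days, 17 and 10 after 4 days, and 11 and 9 after 7 days.

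With MS023 alone the calls were few. After 2 days no member intron of 9 and no cassette exon of 83 was called (backgrounds 5.65% and 3.67%), although 1 intron and 13 exons had an unadjusted p under 0.05 in the quasi-binomial model, and 2 of 31 other events were called (1.60%). The 4-day comparison gave 0 of 9 introns (background 7.17%; 3 at an unadjusted p under 0.05), 1 of 79 cassette exons (4.28%) and 1 of 37 others (1.99%). By limma on the log2 odds, no member event was called at either time, beside 0.0289% and 0.021% of all events. After 7 days 3 of 9 introns (background 11.4%), 3 of 67 cassette exons (4.95%) and 2 of 33 others (3.32%) were called by the quasi-binomial model, and all 8 events had lower Ψ with MS023. None of these 8 was called by limma, in which 21 member events had an unadjusted p under 0.05. Over all events limma called 0.0249% in that comparison.

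The combination gave the most calls. After 2 days they were 5 of 9 introns (background 34.7%), 20 of 86 cassette exons (13.8%) and 12 of 42 others (9.82%). After 4 days they were 7 of 9 introns (39.7%), 20 of 87 cassette exons (14.6%) and 13 of 47 others (12.0%). Of the called events 19 were higher and 18 lower after 2 days, and 24 were higher and 16 lower after 4 days. Because members moved both ways, their median ΔΨ was near 0 (-0.00354 after 2 days and -0.00114 after 4 days, against -0.00222 and -0.0013 over all events tested). The median size of ΔΨ regardless of sign was 0.0277 over members and 0.0128 over all events after 2 days, and 0.0166 and 0.0126 after 4 days.

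Over the 8 comparisons with DMSO, 55 of 221 tested member events were called in at least 1 and 37 in at least 2. No matching share over all events is given here, so these 2 counts have no background beside them. Among the events tested per gene, CDK10 had 19 of 47 called, CCNL2 10 of 23, CDK7 9 of 56 and CCNL1 5 of 13. The counts were 3 of 7 in CCNK, 3 of 16 in CCNT2, 2 of 20 in CCNT1 and 2 of 23 in CDK12. CDK13 had 1 of 10 and CDK9 1 of 6. CDK10 thus had the most calls but not the highest share of its tested events. Of the 252 events, 166 were cassette exons, 54 MXE, 14 A5SS, 9 A3SS and 9 RI. The 9 retained introns lay in 3 genes, CDK10, CCNK and CCNL2. In the 5 comparisons of a GSK591-containing group with DMSO the members' share of calls lay above the background for introns, cassette exons and the other types alike. In the 2-day and 4-day MS023 comparisons it lay below for introns and cassette exons and above for the other types (6.45% beside 1.6%, and 2.7% beside 1.99%). With 9 member introns, 0 calls cannot be told from backgrounds of 5.65% and 7.17%. None of these differences in share was tested, and a large part of the calls came from CDK10, whose events overlap.

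**Figure D1:**
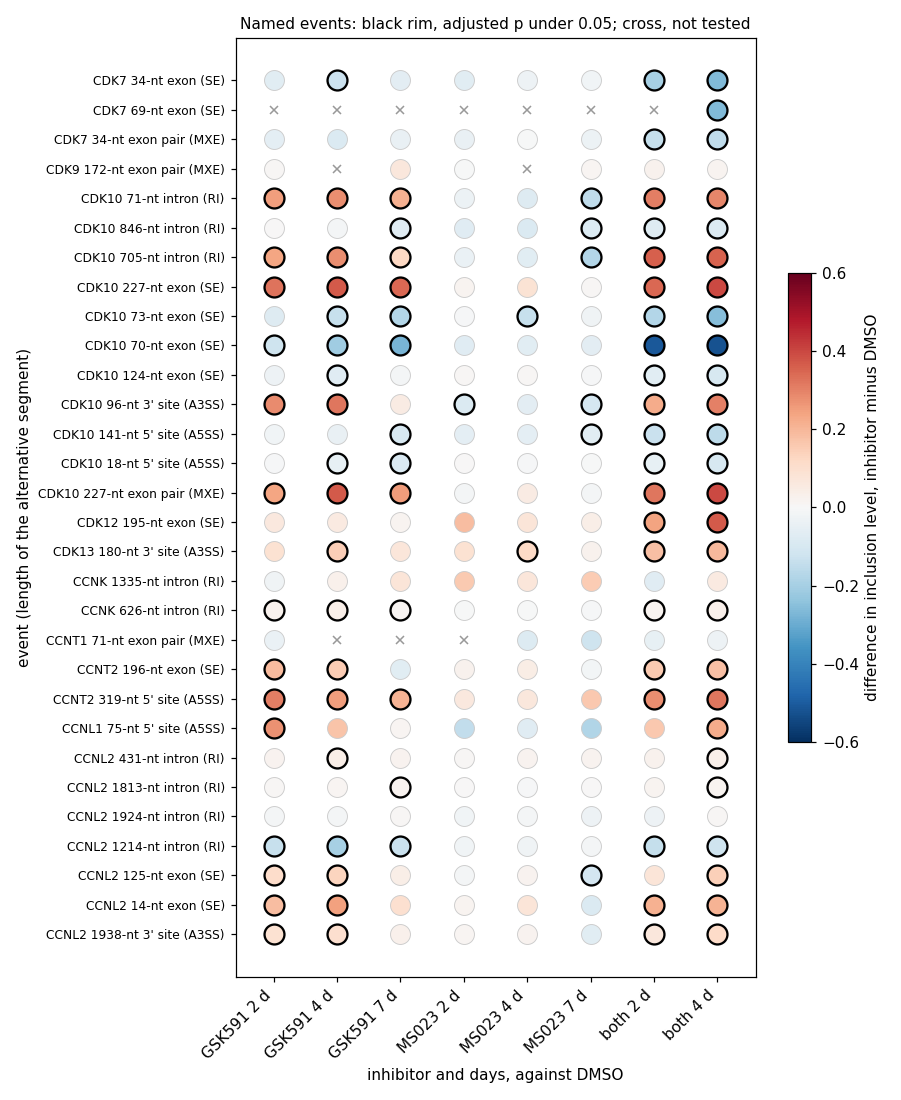
Difference in Ψ, inhibitor minus DMSO, for each named event (vertical axis) and each inhibitor and time (horizontal axis), as the colour of a dot (red higher, blue lower with the inhibitor, no unit), with a black rim where the difference was called and a cross where the event was not tested. The CDK10 71-nt and 705-nt introns and 227-nt exon are red with black rims in all GSK591 and combination columns, and the CDK10 70-nt exon is blue there.

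CDK10 (chr16:89747145-89762762 on hg19, plus strand) carried the retained introns with the largest changes. The first lies between coding exons 7 and 8 of transcript CDK10-202, at chr16:89759735-89759805, and is 71 nt long, where the median retained intron in the tables was 260 nt. An in-frame stop codon begins at its base 45, and of 6 annotated transcripts that keep it 5 are classed as retained-intron and 1 as a target of nonsense-mediated decay, the pathway that degrades messages with a premature stop.

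The 5′ splice site of the next intron, intron 8 (705 nt, chr16:89759876-89760580), is shown beside that of intron 7 because both introns were retained more in the same libraries although these sites differ in sequence, and the 3′ splice site of intron 8 follows. Capitals mark intron letters and lower case exon letters. Over its last 20 bases intron 8 was 50% pyrimidine.
CDK10 intron 7, 5′ splice site: cagGTGGGT
CDK10 intron 8, 5′ splice site: ctgGTAAGT
CDK10 intron 8, 3′ splice site: GTGGGTGCTTCTGTGTGTAGgta

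Intron 7 was retained in most CDK10 reads at that position even without inhibitor: Ψ was 0.645, 0.673 and 0.631 with 4-day DMSO. With GSK591 it was 0.879, 0.91 and 0.914 after 2 days and 0.901, 0.93 and 0.949 after 4 days, and with the combination 0.961, 0.975 and 0.933 after 2 days and 0.964, 0.92 and 0.951 after 4 days. Every library with GSK591 lay above every DMSO library. The ΔΨ was 0.251 ± 0.0165 (adjusted p = 1.23e-05) and 0.277 ± 0.0185 (1.19e-07) for GSK591 at 2 and 4 days, and 0.307 ± 0.0176 (1.31e-08) and 0.295 ± 0.018 (5.07e-09) for the combination. These rested on 266 to 526 reads per library at the event, and each stayed called with any 1 library left out and with limma on the log2 odds (adjusted p of 0.0115 or less).

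At 7 days the same intron moved in opposite directions with the 2 inhibitors. DMSO libraries stood at 0.676, 0.664 and 0.743, GSK591 libraries at 0.905, 0.894 and 0.921, and MS023 libraries at 0.512, 0.582 and 0.53. The 3 groups did not overlap. ΔΨ was 0.213 ± 0.026 with GSK591 (adjusted p = 8.45e-05) and -0.153 ± 0.0326 with MS023 (adjusted p = 0.00424, kept with any 1 library left out but 0.16 in limma). MS023 gave ΔΨ of -0.0371 after 2 days and -0.0759 after 4 days, neither called (adjusted p = 0.618 and 0.159).

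Intron 8 moved the same way from a lower level. Its Ψ with 4-day DMSO was 0.417, 0.485 and 0.461, and rose to 0.699, 0.711 and 0.663 with GSK591 for 2 days and to 0.851, 0.771 and 0.815 with the combination for 2 days. The 4-day libraries stood at 0.752, 0.737 and 0.711 with GSK591 and at 0.797, 0.786 and 0.839 with the combination. All 12 of those libraries lay above the DMSO libraries, with ΔΨ of 0.237 ± 0.0246 (adjusted p = 1.76e-05), 0.358 ± 0.0306 (4.6e-09), 0.279 ± 0.0232 (1.88e-07) and 0.353 ± 0.0257 (5.7e-10) in the order given.

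After 7 days the control itself was higher for intron 8, at 0.524, 0.674 and 0.562, and its rise over 4-day DMSO was called (0.132 ± 0.0492, adjusted p = 0.0255), although not without 4-day DMSO library a, 7-day DMSO library b or 7-day DMSO library c (adjusted p up to 0.194). Against that control GSK591 (0.682, 0.68 and 0.775) gave 0.126 ± 0.0548 (adjusted p = 0.0268). That call was lost without 7-day DMSO library a or c or GSK591 library c, with an adjusted p of up to 0.142, and in limma (0.169). MS023 libraries were at 0.385, 0.44 and 0.399, all below the control, and their fall of -0.178 ± 0.0479 (adjusted p = 0.000289) was kept with any 1 library left out but not in limma (0.175).

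**Figure D2:**
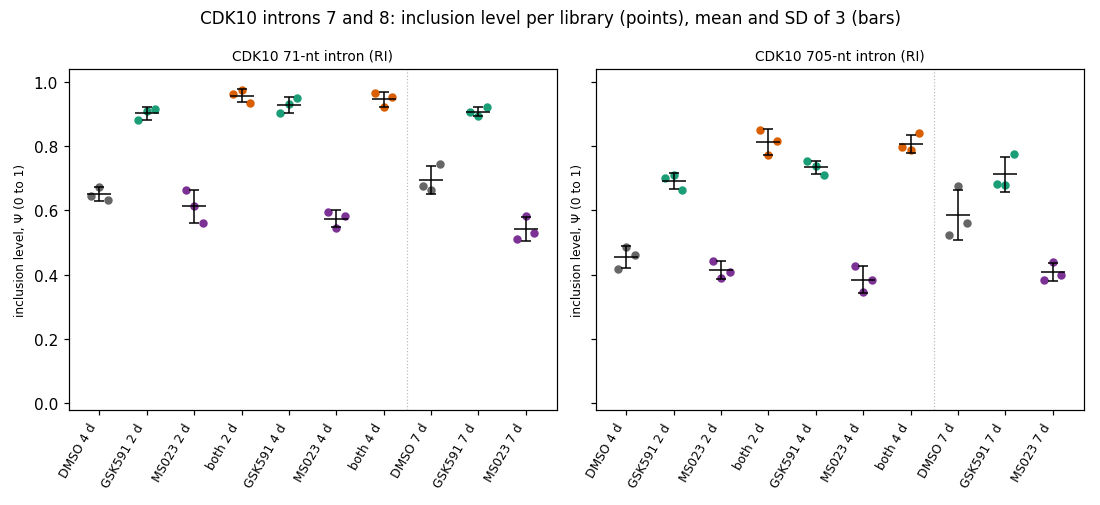
Retention of CDK10 introns 7 and 8 (Ψ, vertical axis, no unit) in each of 3 libraries per group (points) with the group mean and SD (bars). Libraries with GSK591 alone or in combination lie above 4-day DMSO for both introns, and 7-day MS023 lies below 7-day DMSO.

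Exon 8 of CDK10, the 70-nt coding exon between these introns (chr16:89759806-89759875, length not a multiple of 3), had lower Ψ with GSK591 and with the combination. Its inclusion reads, not scaled between libraries, were 177, 170 and 140 with 4-day DMSO and 43, 46 and 51 with GSK591 for 4 days. Skipping reads were 8, 2 and 7 against 16, 9 and 9, and 41, 38 and 38 with the combination for 4 days. How far retention of the flanking introns accounts for the lower Ψ was not tested. Its Ψ was 0.938, 0.983 and 0.932 with 4-day DMSO, 0.646, 0.777 and 0.794 with GSK591 for 4 days, and 0.387, 0.501 and 0.398 with the combination for 4 days. The 3 groups did not overlap. The ΔΨ was -0.212 ± 0.0493 for GSK591 (adjusted p = 0.000163, 0.0858 in limma) and -0.522 ± 0.0397 for the combination (adjusted p = 2.69e-12, 0.0113 in limma).

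The 2-day libraries repeated that order, at 0.83, 0.837 and 0.818 with GSK591 and 0.387, 0.469 and 0.473 with the combination. The fall with the combination, -0.508 ± 0.0323 (adjusted p = 7.83e-12), held throughout. The fall with GSK591, -0.122 ± 0.0171 (adjusted p = 0.0194), was lost without 4-day DMSO library b or any 1 of the 3 GSK591 libraries (up to 0.135) and in limma (0.239). Set directly against GSK591 alone, the combination had lower exon 8 inclusion, with ΔΨ of -0.386 ± 0.0284 at 2 days (adjusted p = 1.09e-05) and -0.31 ± 0.059 at 4 days (adjusted p = 0.00068). Both differences were kept with any 1 library left out and lost in limma (0.169 and 0.177).

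At 7 days exon 8 inclusion was 1.0, 0.976 and 0.966 with DMSO, 0.78, 0.759 and 0.564 with GSK591 and 0.915, 0.938 and 0.898 with MS023. The GSK591 fall was -0.28 ± 0.0695 (adjusted p = 8.69e-07, 0.0533 in limma), and the MS023 difference of -0.0635 was not called (adjusted p = 0.0884). These shares rest on 29 to 218 reads per library. The reads that join exon 7 to exon 9 are the skipping form of 3 listed events, exon 8 itself, an A5SS of 141 nt and an RI of 846 nt that encloses exon 8, so the 3 are not independent. The ΔΨ of the 846-nt event was -0.0754 ± 0.016 (adjusted p = 0.0135) and -0.0881 ± 0.0169 (adjusted p = 0.00376) with the combination at 2 and 4 days, both lost without 4-day DMSO library b (0.12 and 0.0523) and in limma (0.0911 and 0.0635), and -0.0864 ± 0.0176 with MS023 at 7 days (adjusted p = 0.00789, 0.0957 in limma). Its fall with GSK591 at 7 days, -0.0708 ± 0.0155 (adjusted p = 0.0116), was lost without 7-day DMSO library a or GSK591 library c (up to 0.0533). At earlier times GSK591 alone gave no call for the 846-nt event, unlike for exon 8. Its mean Ψ was 0.956 with 4-day DMSO, 0.957 with GSK591 for 2 days and 0.942 with GSK591 for 4 days.

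Near the start of CDK10, inside intron 1, lies a 227-nt exon (chr16:89753997-89754223) that is not part of CDK10-202. Of 4 annotated transcripts that hold it 3 are nonsense-mediated decay targets, and read on from exon 1 it meets a stop codon at its base 121. Its splice sites are shown as those of an exon used in a minority of transcripts without inhibitor, with intron letters in capitals.
CDK10 227-base exon, 3′ splice site: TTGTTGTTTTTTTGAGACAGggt
CDK10 227-base exon, 5′ splice site: gatGTGAGA

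The exon's Ψ was 0.251, 0.303 and 0.321 with 4-day DMSO and 0.28, 0.361 and 0.275 with 7-day DMSO. With GSK591 it was 0.683, 0.578 and 0.591 after 2 days, 0.689, 0.585 and 0.702 after 4 days, and 0.549, 0.746 and 0.657 after 7 days. No GSK591 library overlapped with its control. ΔΨ was 0.325 ± 0.039 (adjusted p = 1.8e-06), 0.367 ± 0.0425 (1.64e-08) and 0.345 ± 0.0637 (9.43e-07), and 0.345 ± 0.0525 (2.42e-07) and 0.395 ± 0.0352 (3.79e-09) with the combination at 2 and 4 days. All 5 were kept with any 1 library left out, but in limma only the last was (0.0486), the others lying between 0.0936 and 0.215. The event held 35 to 165 reads per library. Of 6 listed versions of this cassette event, which differ in the flanking exons, 3 were called in at least 3 of the 8 comparisons with DMSO and 3 in none. With MS023 the differences were 0.0176, 0.0862 and 0.00476 after 2, 4 and 7 days, none called (adjusted p = 0.83, 0.271 and 0.913).

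Listed as mutually exclusive with exon 2, the same 227-nt exon gave ΔΨ between 0.235 ± 0.0311 (GSK591, 2 days, adjusted p = 0.00515) and 0.398 ± 0.0246 (combination, 4 days, adjusted p = 4.08e-08), all 5 GSK591-containing comparisons called. In limma 4 of these remained called (0.0271 or less) and the 2-day GSK591 one did not (0.0714). Exon 2 itself (73 nt, coding) was included less with the combination at 4 days, where its Ψ was 0.555, 0.464 and 0.578 against 0.826, 0.742 and 0.795 with DMSO. This fall of -0.256 ± 0.0425 (adjusted p = 4.62e-05, 0.136 in limma) was kept with any 1 library left out. Those of -0.176 ± 0.0373 (combination, 2 days), -0.14 ± 0.0474 (GSK591, 4 days), -0.139 ± 0.0345 (MS023, 4 days) and -0.174 ± 0.0563 (GSK591, 7 days) were called with adjusted p of 0.00752 to 0.0451, and each was lost with at least 3 of the 6 libraries left out in turn and in limma. Of 5 versions of the exon 2 event with other flanking exons, 2 were called in 4 or 5 comparisons, 1 in a single one and 2 in none.

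**Figure D3:**
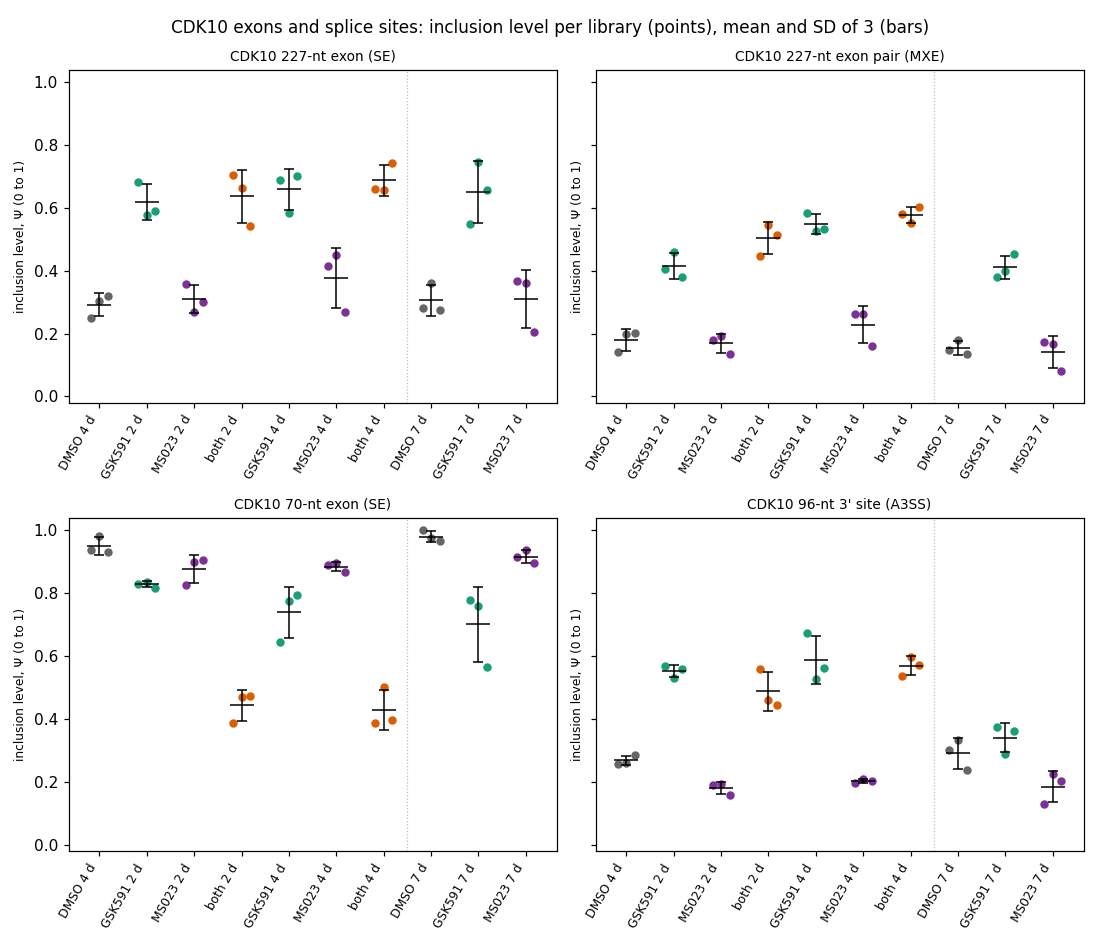
Ψ (vertical axis, no unit) of named CDK10 exon events in each of 3 libraries per group (points) with the group mean and SD (bars). The 227-nt exon is higher in all GSK591-containing groups, and the 70-nt exon 8 is lowest with the combination.

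Further along CDK10, a 3′ splice site 96 nt upstream of that of exon 10 had higher Ψ with GSK591 at early times. Reads within the 96-nt segment, which lies in intron 9, count toward the longer form, and their part in the rise was not tested. The segment it adds (chr16:89760977-89761072) is a multiple of 3 in length, has no in-frame stop and is in 1 protein-coding transcript. The competing sites are shown with the intron letters in capitals.
CDK10 proximal 3′ splice site: AGCGTGCCTCACACTGGCAGggt
CDK10 distal 3′ splice site: AGGTCCACTGTTCTCTGCAGggc

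Ψ of the upstream site was 0.258, 0.26 and 0.286 with 4-day DMSO, 0.568, 0.53 and 0.56 with GSK591 for 2 days and 0.675, 0.528 and 0.562 with GSK591 for 4 days. ΔΨ was 0.285 ± 0.0147 (adjusted p = 7.9e-09) and 0.32 ± 0.0455 (1.37e-10), and 0.221 ± 0.037 (6.48e-07) and 0.301 ± 0.0196 (3.15e-10) with the combination. The 4 rises held with any 1 library left out, whereas limma gave adjusted p of 0.172, 0.0922, 0.176 and 0.0518. At 7 days the GSK591 libraries (0.374, 0.288 and 0.361) overlapped those of DMSO (0.302, 0.332 and 0.237), and the difference of 0.0505 was not called (adjusted p = 0.535). With MS023 its Ψ was lower, with ΔΨ of -0.0883 ± 0.0143 at 2 days (adjusted p = 0.037) and -0.105 ± 0.0398 at 7 days (adjusted p = 0.0234), both lost with any of the 6 libraries left out (up to 0.216 and 0.305) and in limma (0.635 and 0.56).

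Toward the end of the gene, exon 10 (124 nt) and the last 18 nt of exon 11 were each included less with the combination at 4 days. Exon 10 stood at 0.932, 0.812 and 0.916 against 0.98, 0.994 and 0.993 with DMSO, a fall of -0.102 ± 0.0378 (adjusted p = 0.000461) that was lost without combination library b (0.0519). Its skipping reads were few, 5, 14 and 5 with the combination and 3, 1 and 1 with DMSO. Of 2 tested versions of the exon 10 event, 1 was called in 3 comparisons with DMSO and 1 in none. The 18-nt segment stood at 0.904, 0.833 and 0.842 against 0.972, 0.947 and 0.968, a fall of -0.103 ± 0.0238 (adjusted p = 0.000135, 0.0403 in limma) that was kept with any 1 library left out. With GSK591 at 7 days the 18-nt segment was at 0.863, 0.858 and 0.847 against 0.942, 0.961 and 0.941, and that fall of -0.0919 ± 0.00829 (adjusted p = 0.00797) was lost without 7-day DMSO library b (0.0528) and in limma (0.0746).

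The initiating kinase CDK7 (chr5:68530622-68573257) had a larger share of reads that skip exons 3 to 5 together when both inhibitors were present. Against these reads, which join the exon before exon 3 directly to the one after exon 5, exon 3 (34 nt, length not a multiple of 3) had Ψ of 0.888, 1.0 and 0.83 with 4-day DMSO, 0.667, 0.751 and 0.703 with the combination for 2 days and 0.599, 0.654 and 0.676 for 4 days. The combination libraries lay below all DMSO libraries. The fall was -0.199 ± 0.0554 at 2 days (adjusted p = 0.00106, lost without combination library a or c, up to 0.0736) and -0.263 ± 0.0548 at 4 days (adjusted p = 3.85e-05, kept with any 1 library left out), and limma gave 0.183 and 0.124. With GSK591 alone the 4-day fall of -0.127 ± 0.0599 had an adjusted p of 0.0444, but the libraries overlapped and it was lost with any of the 6 left out (up to 0.329) and in limma (0.363). Exon 5 (69 nt) passed the read minimum in the 4-day combination comparison, at 0.643, 0.688 and 0.619 against 0.878, 1.0 and 0.864 (-0.264 ± 0.0478, adjusted p = 9.6e-06, 0.12 in limma). The skipping reads of both events were the same, 9, 0 and 11 in the 4-day DMSO libraries and 55, 44 and 43 in the 4-day combination libraries, so the falls of exon 3 and exon 5 are 1 observation. Set against its adjacent exons, with 12134 and 14740 reads over all libraries, neither exon was called in any of the 8 comparisons with DMSO, and its largest absolute ΔΨ was 0.0137 for exon 3 and 0.00631 for exon 5. None of the MS023 differences of exon 3 was called (-0.068, -0.0305 and -0.0225 after 2, 4 and 7 days, adjusted p = 0.447 to 0.756).

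CDK9 (chr9:130547958-130553071), the P-TEFb kinase, had no called difference in its named event. That event, exon 5 as 1 of 2 mutually exclusive exons with 321 to 872 reads per library, had Ψ of 0.553, 0.514 and 0.519 with 4-day DMSO, and its largest difference, 0.0663 with GSK591 at 7 days, was not called (adjusted p = 0.111). Elongation kinase CDK12 (chr17:37617739-37723812) had a thinly covered 195-nt exon (chr17:37713117-37713311, 11 to 50 reads per library) in 1 transcript classed as a nonsense-mediated decay target. It stood at 0.661, 0.355 and 0.513 with the combination for 4 days against 0.208, 0.136 and 0.0797 with DMSO. That rise of 0.368 ± 0.0957 (adjusted p = 0.000603) was lost without combination library a (0.0738) and in limma (0.0629), and the 2-day rise of 0.243 ± 0.0747 (adjusted p = 0.0245) was lost with 5 of the 6 libraries left out in turn (up to 0.206) and in limma (0.153).

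CDK13 (chr7:39989720-40139179), a kinase that shares its cyclin with CDK12, had higher Ψ for the form with an earlier 3′ splice site of exon 13. Reads within the added segment count toward that form, and their part in the rise was not tested. The extra segment of 180 nt (chr7:40132384-40132563) is coding and keeps the reading frame. Both sites are shown, intron letters in capitals, because the first ends in TAG and the second in CAG.
CDK13 proximal 3′ splice site: TAATATAATTTTGTCTTTAGtaa
CDK13 distal 3′ splice site: TGCTGGAATTTTGGCAACAGgtg

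Ψ of the longer CDK13 form was 0.121, 0.141 and 0.122 with 4-day DMSO, 0.237, 0.268 and 0.32 with GSK591, 0.314, 0.245 and 0.182 with MS023 and 0.314, 0.302 and 0.345 with the combination, all for 4 days. Each inhibitor group lay above DMSO. The rises were 0.147 ± 0.0251 with GSK591 (adjusted p = 0.000237) and 0.193 ± 0.0145 with the combination (3.72e-06), and 0.182 ± 0.0331 with the combination at 2 days (1.77e-05), all 3 kept with any 1 library left out but not in limma (0.166, 0.0685 and 0.128). The rise with MS023, 0.12 ± 0.0389 (adjusted p = 0.00861), was lost without 4-day DMSO library b or MS023 library a or b (up to 0.229) and in limma (0.547). GSK591 and MS023 did not differ at 4 days (0.0278, adjusted p = 0.667), which does not show that they act alike.

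Among the cyclins, cyclin T2 gained a pair of segments with early stop codons. CCNT2 (chr2:135675805-135716912) had a 196-nt exon inside intron 5 and a 319-nt extension of the next exon into intron 6 (chr2:135703357-135703552 and chr2:135703717-135704035), each in 1 transcript classed as a nonsense-mediated decay target. An in-frame stop lies at base 27 of the exon and at base 11 of the extension. The sites are shown because the extension pits a 5′ splice site that begins GTAAGT against one that begins GTTGTT (intron letters in capitals).
CCNT2 196-base exon, 3′ splice site: TCTTTTTTTTTTAAATCCAGgag
CCNT2 196-base exon, 5′ splice site: gtaGTAAGT
CCNT2 proximal 5′ splice site: cagGTTGTT
CCNT2 distal 5′ splice site: ttgGTAAGT

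The 319-nt CCNT2 extension had Ψ of 0.521, 0.527 and 0.409 with 4-day DMSO, 0.756, 0.865 and 0.762 with GSK591 for 2 days, 0.804, 0.714 and 0.692 with GSK591 for 4 days, and 0.738, 0.756 and 0.923 with the combination for 4 days. All lay above DMSO. ΔΨ was 0.309 ± 0.0522 (adjusted p = 9.6e-05), 0.251 ± 0.0516 (0.000923) and 0.321 ± 0.0703 (6.07e-05), with 0.277 ± 0.0516 (0.000258) for the combination at 2 days. Each was kept with any 1 library left out, and limma gave 0.0661 to 0.0826. Reads within the 319-nt segment count toward the longer form, and their part in the rise was not tested. At 7 days the rise with GSK591 was 0.208 ± 0.074 (adjusted p = 0.011, lost with 4 of the 6 libraries left out in turn, up to 0.175, and in limma, 0.212), while MS023 gave 0.163, not called (adjusted p = 0.157).

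The 196-nt CCNT2 exon was rare with 4-day DMSO (0.0851, 0.0414 and 0.0737) and rose to 0.224, 0.25 and 0.294 with GSK591 for 2 days and to 0.151, 0.275 and 0.225 for 4 days. The changes were 0.189 ± 0.0244 (adjusted p = 0.00013) and 0.15 ± 0.0384 (0.000257), and 0.159 ± 0.0151 (9.39e-05) and 0.18 ± 0.0358 (8.15e-05) with the combination. All 4 were kept with any 1 library left out and lost in limma (0.0775 to 0.175). By 7 days the picture was different: DMSO stood at 0.169, 0.126 and 0.224 and GSK591 at 0.0944, 0.126 and 0.0974, a difference of -0.067 that was not called (adjusted p = 0.347). The control rose by 0.106 ± 0.0311 from 4 to 7 days (adjusted p = 0.0368), a call lost with 5 of the 6 libraries left out in turn (up to 0.429) and in limma (0.284). The event held 24 to 101 reads per library. Cyclin T1 (CCNT1, chr12:49082241-49110781) had no called difference in its named event, exon 8 as a mutually exclusive exon, with -0.126 for MS023 at 7 days as its largest (adjusted p = 0.296).

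Cyclin K (CCNK, chr14:99947506-100001381) retained its intron 8 (626 nt, chr14:99969322-99969947, stop codon at base 58) in few transcripts, but more with GSK591. The sites are given because they belong to an intron that is almost always removed, in contrast to the CDK10 introns (capitals, intron letters).
CCNK intron 8, 5′ splice site: gtgGTGAGT
CCNK intron 8, 3′ splice site: TGTATTTTCTTTTGTAACAGgtt

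Retention of CCNK intron 8 was 0.0209, 0.0164 and 0.0133 with 4-day DMSO, 0.0586, 0.0382 and 0.0373 with GSK591 for 2 days, 0.044, 0.0681 and 0.0478 with GSK591 for 4 days, and 0.0419, 0.0494 and 0.045 with the combination for 4 days. These groups did not overlap with DMSO. The rises of 0.0278 ± 0.0073 (adjusted p = 0.000811), 0.0365 ± 0.0078 (7.39e-06) and 0.0286 ± 0.00311 (4.68e-06) were kept with any 1 library left out and in limma (0.0367, 0.0104 and 0.0088). Those of the combination at 2 days (0.015 ± 0.00592, adjusted p = 0.00933) and of GSK591 at 7 days (0.0129 ± 0.00579, adjusted p = 0.0393, libraries overlapping) were each lost with 3 of the 6 libraries left out in turn (up to 0.0606 and 0.205) and in limma (0.108 and 0.17). A listed CCNK intron of 1335 nt encloses exon 6, and was called in none of the 8 comparisons with DMSO (adjusted p of 0.413 to 0.99). Its libraries ranged from 0.466 to 1.0 within 7-day DMSO alone.

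In the cyclin L pair, both genes changed around exons that are not part of the reference coding sequence. CCNL1 (chr3:156864297-156878549, minus strand) extended an exon by 75 nt into intron 3, a form in 3 transcripts of which 2 are nonsense-mediated decay targets. Ψ of the extension was 0.519, 0.454 and 0.408 with 4-day DMSO, 0.696, 0.75 and 0.76 with GSK591 for 2 days and 0.325, 0.285 and 0.321 with MS023 for 2 days. DMSO lay between the inhibitors, with no overlap. GSK591 raised it by 0.275 ± 0.0379 (adjusted p = 0.00322, 0.0836 in limma), while the MS023 difference of -0.15 was not called (adjusted p = 0.114). At later times the GSK591 differences were 0.173 at 4 days and 0.00995 at 7 days, neither called (adjusted p = 0.0523 and 0.88). Set directly against each other at 2 days, GSK591 was higher than MS023 by 0.425 ± 0.0234 (adjusted p = 7.52e-07, 0.0164 in limma), the largest such difference among the named events at that time. The combination at 4 days gave 0.222 ± 0.0786 (adjusted p = 0.0373), lost with 5 of the 6 libraries left out in turn (up to 0.18) and in limma (0.141).

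CCNL2 (chr1:1321091-1334715, minus strand) holds a 14-nt exon in intron 5 (chr1:1328170-1328183), found in 2 transcripts, both classed as nonsense-mediated decay targets. It is printed with its bases in capitals between 10 intron bases on each side, as the exon is shorter than a typical splice site window.
CCNL2 14-base exon, chr1:1328160-1328193, minus strand: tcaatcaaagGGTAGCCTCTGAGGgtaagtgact

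The 14-nt CCNL2 exon had Ψ of 0.286, 0.224 and 0.165 with 4-day DMSO and 0.463, 0.372 and 0.578 with GSK591 for 4 days, a rise of 0.246 ± 0.0691 (adjusted p = 0.000926) lost without GSK591 library c (0.0808) and in limma (0.257). It holds 25 to 85 reads per library. A longer form of the same exon, 125 nt (chr1:1328059-1328183, stop codon at base 20), rose from 0.753, 0.698 and 0.678 to 0.816, 0.839 and 0.873 with GSK591 for 4 days and to 0.809, 0.864 and 0.886 with the combination for 4 days. These rises of 0.133 ± 0.028 (adjusted p = 0.000276) and 0.144 ± 0.032 (0.000314) were kept with any 1 library left out and lost in limma (0.388 and 0.262). The skipping reads of both exons and of a 1938-nt A3SS are the same reads, those that join exon 5 to exon 6. In 7-day DMSO the 125-nt exon was itself at 0.849, 0.89 and 0.871, higher than at 4 days by 0.161 ± 0.0255 (adjusted p = 0.00012), although not without any 1 of the 3 7-day DMSO libraries (up to 0.123) or in limma (0.246).

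A CCNL2 intron of 1214 nt (chr1:1326956-1328169), which begins after the 14-nt exon and encloses 1 annotated exon, fell in all 5 comparisons of a GSK591-containing group with DMSO. Its Ψ was 0.938, 0.929 and 0.962 with 4-day DMSO, 0.821, 0.773 and 0.821 with GSK591 for 2 days, 0.725, 0.74 and 0.773 for 4 days, and 0.813, 0.815 and 0.831 with the combination for 4 days. At 7 days DMSO was at 0.956, 0.929 and 0.903 and GSK591 at 0.829, 0.78 and 0.785. No GSK591 library reached its control. The falls were -0.138 ± 0.019 (adjusted p = 0.000366), -0.197 ± 0.0173 (1.05e-06), -0.123 ± 0.0114 (3.74e-05) and -0.132 ± 0.0219 (0.000168), with -0.145 ± 0.0346 (0.000109) for the combination at 2 days. All 5 were kept with any 1 library left out and in limma (0.0262 or less). Reads within the enclosed exon count toward the retained form, and their part in the fall was not tested.

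The other CCNL2 intron events had Ψ near the upper end of the scale. That of 431 nt (chr1:1326246-1326676) rose from 0.956, 0.946 and 0.944 to 0.991, 0.993 and 0.979 with GSK591 for 4 days (0.0391 ± 0.00571, adjusted p = 0.00551, 0.0141 in limma) and by 0.0351 ± 0.00535 with the combination (adjusted p = 0.00973, 0.0136 in limma). Its 5′ splice site, tgaGTTTGC, differs from that of the 1214-nt intron, aggGTAAGT, both shown with intron letters in capitals because the introns are neighbours and moved in opposite directions. Those of 1813 and 1924 nt enclose 3 and 4 annotated exons, and reads within these exons count toward the retained form, so their Ψ does not measure retention alone. The first rose by 0.0178 ± 0.00209 with the combination at 4 days and 0.0198 ± 0.00434 with GSK591 at 7 days (adjusted p = 0.0227 and 0.0393), calls lost with 3 and 5 of the 6 libraries left out in turn (up to 0.078 and 0.126), and the second was called in no comparison with DMSO.

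**Figure D4:**
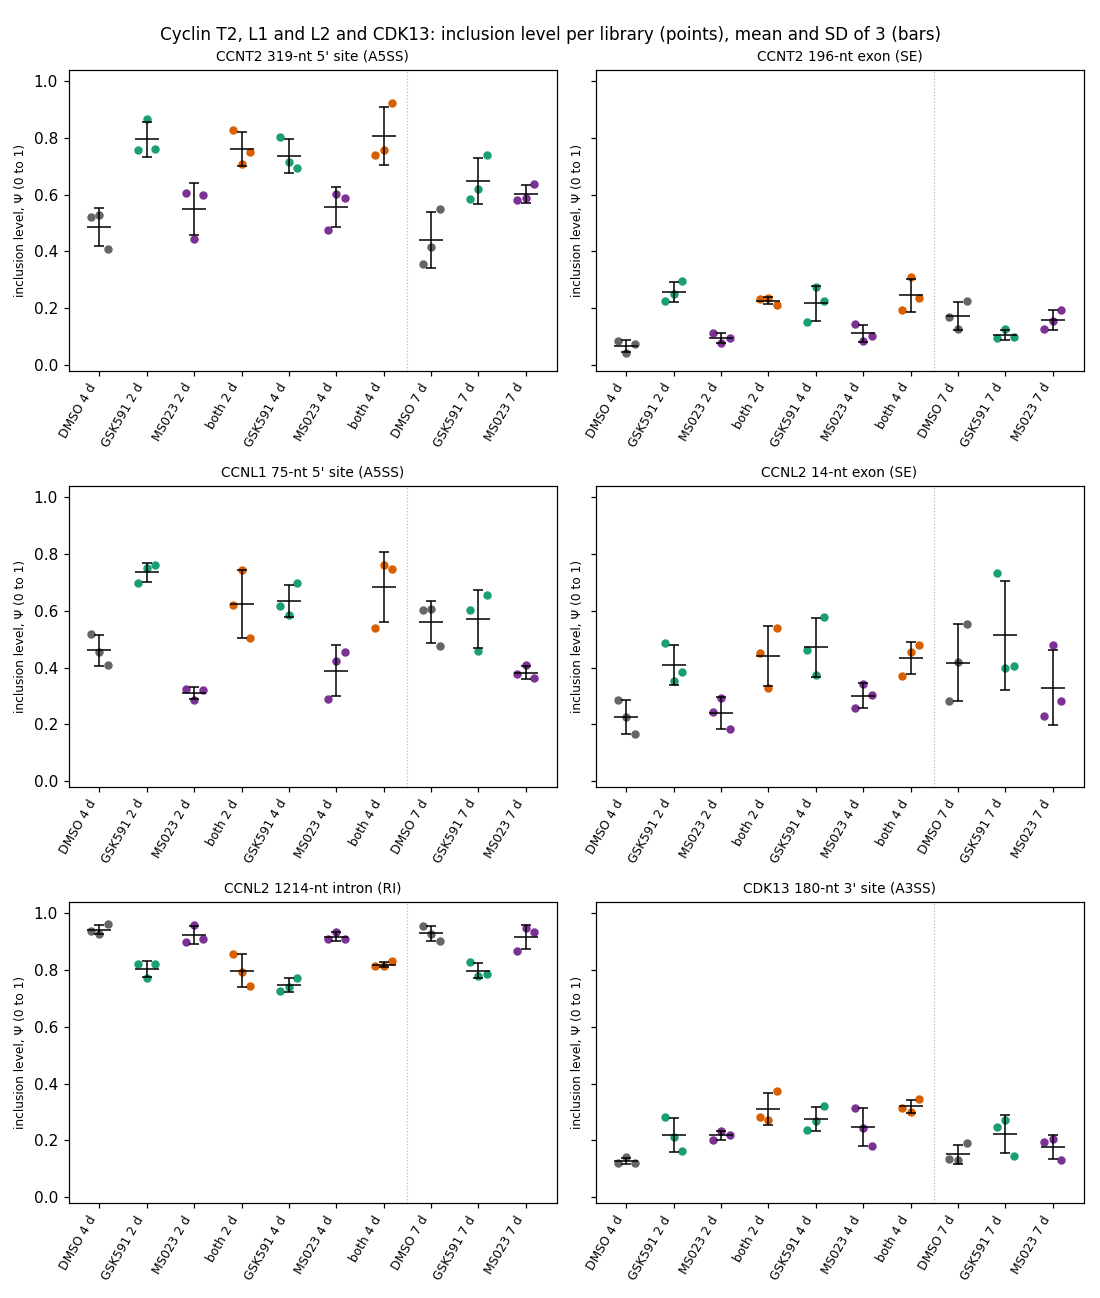
Ψ (vertical axis, no unit) of named cyclin and CDK13 events in each of 3 libraries per group (points) with the group mean and SD (bars). The panels show the CCNT2 319-nt extension and 196-nt exon, the CCNL1 75-nt extension, the CCNL2 14-nt exon and 1214-nt intron, and the CDK13 180-nt segment. The CCNT2 and CCNL1 events are higher with GSK591 for 2 days than with 4-day DMSO, and the CCNL2 intron is lower.

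Set directly against each other at 1 µM, GSK591 and MS023 differed in 22 of 108 member events at 2 days (background 10.4% of all events tested), 25 of 99 at 4 days (15.2%) and 28 of 101 at 7 days (12.8%). Ψ was higher with GSK591 in 17, 21 and 23 of them. CDK10 intron 7 differed by 0.288 ± 0.0313 at 2 days (adjusted p = 1.48e-06), 0.353 ± 0.0206 at 4 days (1.01e-11) and 0.365 ± 0.0226 at 7 days (6.19e-12), and intron 8 by 0.277 ± 0.0217 (4.02e-07), 0.348 ± 0.0266 (1.1e-11) and 0.304 ± 0.0355 (4.85e-11). All 6 were kept with any 1 library left out and in limma. CDK10 exon 8 was lower with GSK591 than with MS023, with a difference of -0.216 ± 0.0697 at 7 days (adjusted p = 0.00117), a difference lost without GSK591 library c (0.0964) and in limma (0.0612).

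The combination differed from GSK591 alone in 6 of 116 member events at 2 days (background 3.82%) and 9 of 112 at 4 days (5.68%). None of the 15 was called by limma, in which 13 and 16 member events had an unadjusted p under 0.05. Over all events limma called 0.0172% and 0.0396% in these 2 comparisons. Beyond CDK10 exon 8, CDK10 intron 8 was higher with the combination by 0.121 ± 0.0274 at 2 days (adjusted p = 0.0387, lost with 5 of the 6 libraries left out in turn, up to 0.236), and by 0.0743 at 4 days, not called (adjusted p = 0.0772). CDK7 exon 3 was lower, with a difference of -0.129 ± 0.0366 at 2 days (adjusted p = 0.0493, lost with 5 of the 6 left out in turn, up to 0.411). Between the controls, 7-day DMSO differed from 4-day DMSO in 8 of 119 member events (background 6.12%), 7 of them higher at 7 days.

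**Figure D5:**
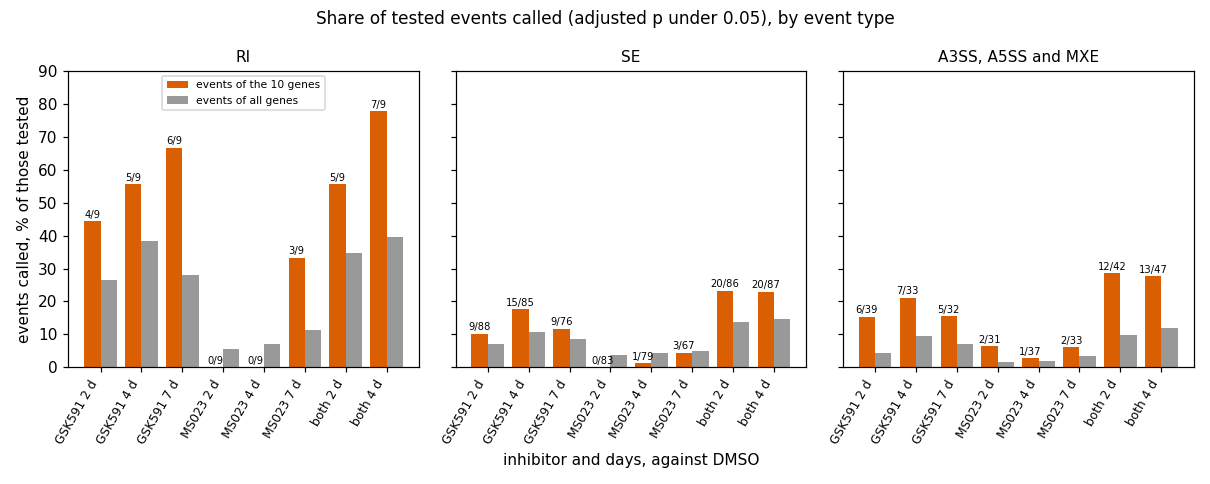
Percent of tested events called (vertical axis) among the members and among all events, for each inhibitor comparison with DMSO and each group of event types (horizontal axis). The 3 bars of member introns with MS023 stand at 0, 0 and 33.3%, and those with GSK591 or the combination between 44.4% and 77.8%.

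The introns whose Ψ followed CDK10 intron 8 most closely over the 10 group means, among 1803 introns compared, were a 78-nt intron of RASSF7 (Pearson r 0.982), a 151-nt intron of ZWINT (0.981) and an 83-nt intron of MUTYH (0.979). The MUTYH intron moved from 0.278 with 4-day DMSO to 0.772 with the combination for 4 days, and that of RASSF7 from 0.873 to 0.962. The points share controls and libraries and the values are a description.

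The other genes of the transcription cycle, a list of 35 symbols of which 29 had a listed event, had called introns in NELFE, NELFCD and CDK11A. NELFE and NELFCD encode subunits of the negative elongation factor that holds the polymerase at its pause, and CDK11A the kinase partner of cyclins L1 and L2. Of 12 introns tested on the list, 4 were called with GSK591 at 2 days (33.3%, beside 26.4% of all introns), 6 at 4 days (50%, beside 38.2%) and 3 at 7 days (25%, beside 27.9%), all higher. For the combination at 4 days 7 were called (58.3%, beside 39.7%), 6 of them higher, with 3 each in NELFE and NELFCD and 1 in CDK11A. MS023 gave 0, 0 and 1 at 2, 4 and 7 days, the last in NELFCD, beside 5.65%, 7.17% and 11.4% of all introns. The shares of the list were not tested against the background. Their median ΔΨ with GSK591 at 4 days was 0.0264, against 0.0196 over all introns tested. NELFE introns of 248 and 181 nt rose by 0.0678 and 0.215 with GSK591 at 4 days (adjusted p = 4.97e-05 and 0.000439). Among cassette exons of the list 12 of 182 were called with GSK591 at 4 days (6.59%, beside 10.6% of all cassette exons), 11 of them lower.

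In a second list, the kinases and cyclins of the cell division cycle (19 symbols, 15 with a listed event), hardly any intron could be tested. Of 3 tested with the combination at 4 days 1 was called, in CCNB2 (beside 39.7% of all introns). None of 3 was called with GSK591 at 2 or 4 days (beside 26.4% and 38.2%). Cassette exons of that list were called in 12 of 101 with GSK591 at 4 days (11.9%, beside 10.6% of all cassette exons), 11 of them lower, and in 20 of 85 with the combination at 4 days (23.5%, beside 14.6%), 12 of them lower.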

How the data were processed

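Poly(A)-RNA libraries of A549 cells were trimmed with Trim Galore 0.6.5 and aligned to hg19 with STAR 2.4.2a, per the submitters' processing notes. The authors counted splicing events with rMATS 4.0.2 (a second release is also named in the sources), and deposited 8 tables that give, for each event and library, raw read counts of the inclusion and the skipping form (junction reads plus reads on the alternative segment) and an inclusion fraction from 0 to 1. The annotation used is not given in the sources used here. The deposited p-values, adjusted p-values and differences in inclusion are the authors' own comparisons and were not used.

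Ψ was recomputed from the counts and differed from the deposited fraction by at most 0.0005. Each event was fitted with a quasi-binomial logistic model of its counts in 3 against 3 libraries, with the dispersion moderated across all events of its type by limma 3.58.1 (squeezeVar, R 4.3.3) and held at 1 or above, an F test, which is 2-sided, and Benjamini-Hochberg adjustment over all events of the type. No count was normalised between libraries, since a ratio within a library needs none. No label or column name states the control of the 7-day tables. It was inferred to be 7-day DMSO, since no other DMSO group of these samples was left. The model was tested on simulated data. Alternatives were limma on the log2 odds with 0.5 added to each form, a minimum of 50 or of 1 read, no division by length, adjustment over all types, and leaving out each library. A test of the difference between the 7-day and 4-day effects was added after the data were seen.

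Named events were every member retained intron tested, every other event called in at least 2 of the 8 comparisons with DMSO with an absolute ΔΨ of at least 0.1 in 1 of them, and the tested event of each gene with the largest absolute ΔΨ, with events that share a segment described once. Likeness was the Pearson r over the 10 group means among introns of other genes whose group means span at least 0.1. Members, lists and rules were chosen with earlier results of these data known. Positions and transcript classes came from the hg19 annotation, and 4751 of 4928 intron sequences read from that genome ran from GT to AG (96.4%). Nascent-RNA samples of the series were not analysed here.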

Additional observations from a re-analysis of the deposited data

Results flagged for a closer look

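In 2 events the effect of GSK591 at 7 days differed from its effect at 4 days by a test of that difference on the log2 odds scale. The 196-nt exon of CCNT2 had ΔΨ of 0.15 at 4 days and -0.067 at 7 days, a difference of -2.82 ± 0.66 in log2 odds (adjusted p = 0.016). The 96-nt CDK10 segment had ΔΨ of 0.32 at 4 days and 0.0505 at 7 days, a difference of -1.61 ± 0.35 (adjusted p = 0.00479). In CCNT2 the controls also moved, from 0.0851, 0.0414 and 0.0737 with 4-day DMSO to 0.169, 0.126 and 0.224 with 7-day DMSO, and the part of that shift in the result was not tested. These were 2 of 97 member events tested for GSK591, beside 1.52% of all events, and 0 of 94 for MS023, beside 0.0678% of all events. The test was added after the data were seen.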

How the results depend on the processing

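The number of calls was not stable. Among 159 called values of the named events over 14 comparisons none changed sign with a library left out or without division by effective length. The other alternatives leave ΔΨ as it is, so its sign could not change there. Because these values were chosen as called, this does not extend to uncalled ones. Of the 159, 9 were no longer called when p-values were adjusted over all 5 types together and 2 with a minimum of 1 read. With a minimum of 50 reads 1 of 141 was lost, and 0 without division by effective length. Leaving out 1 library in turn lost 68 of the 159 at least once and kept 91. With limma on the log2 odds 106 were lost, and the cause was not tested. The limma count of member calls, beside the count of the quasi-binomial model, was 4 against 19 (GSK591, 2 days), 0 against 2 (MS023, 2 days), 9 against 37 (combination, 2 days), 7 against 27 (GSK591, 4 days), 0 against 2 (MS023, 4 days), 19 against 40 (combination, 4 days), 6 against 20 (GSK591, 7 days) and 0 against 8 (MS023, 7 days). Limma also called fewer over all events, with 633 against 7869 (GSK591), 33 against 3609 (MS023) and 4910 against 15800 (combination) at 2 days. At an unadjusted p under 0.05, limma had 12, 10 and 21 member events for MS023 at 2, 4 and 7 days. GSK591 against MS023 gave 8 against 22, 10 against 25 and 11 against 28 at 2, 4 and 7 days, the combination against GSK591 0 against 6 and 0 against 9 at 2 and 4 days, and 7-day against 4-day DMSO 3 against 8. MS023 at 2 days gave 3 calls with adjustment over all types. With 1 library left out in turn, the counts ran from 12 to 15, 0 to 1, 17 to 29, 17 to 22, 0 to 2, 30 to 34, 8 to 14 and 3 to 4 in the order of the first 8 comparisons, from 12 to 20, 15 to 20 and 17 to 23 for GSK591 against MS023, from 2 to 5 and 4 to 9 for the combination against GSK591, and from 3 to 8 for the controls. No paired analysis was possible because no column name gives a replicate number, and the planned fit with a replicate block was not run. Depth was lowest for the CDK12 195-nt exon (11 to 50 reads per library), the CCNT2 196-nt exon, the CCNL2 14-nt exon and CDK10 exon 8.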
